A study of Mus musculus with 42 samples.

Results

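Antiviral interferon-stimulated genes encode the proteins with which a cell resists virus replication once it has sensed type I interferon. The set described here holds 38 such genes, chosen by name from the gene count table, out of 54532 genes in all. All 38 were found under their symbols and all 38 were among the 17648 genes with enough counts to be tested. They were measured by bulk RNA sequencing in macrophages grown with macrophage colony-stimulating factor from the whole bone marrow of male wild-type C57BL/6 mice. Young donors were 10 to 12 weeks old, and aged donors 18 to 20 months. At each age there were 6 groups, and all of them carried no genetic change and shared the same culture. Control cells were given 0.1% normal saline for 24 h and harvested on day 3. The β-glucan groups, given a glucose polymer of fungal cell walls at 5 µg/mL, were harvested at 4 h, at 24 h, or on day 3 after a 24 h exposure. Naive LPS cells were given lipopolysaccharide (LPS) of bacterial outer membranes at 100 ng/mL for 4 h. Primed LPS cells had the 24 h β-glucan exposure and, for the last 4 h before harvest on day 3, the same dose of LPS. Each group held 3 libraries, except young control and young naive LPS with 6 each, which makes 42 libraries in 12 groups. The labels call the replicates biological and do not say whether each came from its own mouse, so p-values measure the spread between these libraries.

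Macrophages sense LPS through Toll-like receptor 4, and 1 branch of its signalling activates the transcription factor IRF3 and the gene of interferon-β, which the cells secrete. Interferon binds its receptor on the same and on neighbouring cells, and the kinases JAK1 and TYK2 pass the signal on. It reaches interferon-stimulated genes through the interferon-stimulated response element (ISRE) in their promoters. β-glucan is bound by Dectin-1, a different receptor, and is known for changing how macrophages respond to a later stimulus, which is called trained immunity. The products act at many steps of an infection. Sensors such as the oligoadenylate synthetase family and the kinase PKR (gene Eif2ak2) recognise viral RNA, IFIT proteins bind it, effectors such as viperin (Rsad2) block its synthesis, membrane proteins such as IFITM3 and tetherin (Bst2) hinder entry and release, and ISG15 is a ubiquitin-like protein attached to other proteins.

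Total counts per library ran from 39850835 to 67347866, and levels are given as CPM, counts scaled to library size after TMM normalisation, so each is relative to the rest of its library. In every library the summed level of 10 macrophage markers ran from 23669 to 40588 CPM. Markers of other cells were low, with 7.38 to 19.1 CPM for 10 neutrophil genes, 0.186 to 1.63 CPM for 5 B cell genes, 0 to 0.699 CPM for 7 T and NK cell genes, 0.610 to 14.9 CPM for 7 conventional dendritic genes and 27.5 to 177 CPM for 8 stromal genes. The 8 markers of plasmacytoid dendritic cells, which make interferon, summed to 53.5 to 358 CPM, of which Tcf4 alone gave 49.4 to 352 CPM. Ccr9 reached 4.48 CPM, Spib 2.80 CPM, Pacsin1 0.450 CPM and Klk1 0.227 CPM, and Cox6a2 ran from 0.372 to 1.99 CPM. The defining marker Siglech was at or below 0.145 CPM and Ly6d had 0 counts in every library. Young replicates 4 to 6, present in control and naive LPS alone, differed from replicates 1 to 3 in 17.4% of all genes tested by edgeR's quasi-likelihood test. Of the 38 genes, 6 were higher in replicates 4 to 6, led by Ifitm3 with 0.56 ± 0.15 (log2 difference ± SE), and 1, Herc6, was lower. This difference was a term of the model, and what the 2 sets of replicates stand for is not given in the labels. In bulk RNA, fewer cells that express a gene and less RNA per cell cannot be told apart.

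To show where the interferon signal meets these genes, promoter sequence was taken from RefSeq for the GRCm38.p6 assembly, the build family of the mm10 coordinates of the count table. A window from 250 bases before to 50 after the start was found for 29 of the 38 genes. The ISRE core was searched as GAAA, any 2 bases and GAAA, or for the other strand TTTC, any 2 bases and TTTC, with overlapping matches counted separately. It was found in 10 of these 29 windows, or 34.5%, against 3.99% of the windows of all 27025 genes in the table. Printed below, as examples of such matches, are windows of 6 genes described by library later on, chosen among those that hold one, from 200 bases before to 30 after the start, 5′ to 3′ on the gene's strand, with ISRE matches in capitals.
Rsad2, chr12:26456423-26456652, minus strand: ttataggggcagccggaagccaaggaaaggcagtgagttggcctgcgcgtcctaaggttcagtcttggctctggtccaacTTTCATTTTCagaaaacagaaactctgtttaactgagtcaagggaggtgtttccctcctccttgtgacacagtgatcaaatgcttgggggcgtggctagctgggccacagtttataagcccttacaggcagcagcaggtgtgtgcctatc
Ifit1, chr19:34640689-34640918, plus strand: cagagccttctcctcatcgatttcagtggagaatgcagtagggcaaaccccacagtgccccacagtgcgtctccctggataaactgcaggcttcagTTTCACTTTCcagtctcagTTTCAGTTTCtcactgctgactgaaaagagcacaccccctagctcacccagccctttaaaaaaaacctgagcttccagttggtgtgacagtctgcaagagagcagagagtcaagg
Isg15, chr4:156200789-156201018, minus strand: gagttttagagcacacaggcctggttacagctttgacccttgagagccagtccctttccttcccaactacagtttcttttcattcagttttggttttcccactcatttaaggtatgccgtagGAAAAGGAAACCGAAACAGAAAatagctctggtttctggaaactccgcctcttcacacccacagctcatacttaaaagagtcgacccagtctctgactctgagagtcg
Oas3, chr5:120777630-120777859, minus strand: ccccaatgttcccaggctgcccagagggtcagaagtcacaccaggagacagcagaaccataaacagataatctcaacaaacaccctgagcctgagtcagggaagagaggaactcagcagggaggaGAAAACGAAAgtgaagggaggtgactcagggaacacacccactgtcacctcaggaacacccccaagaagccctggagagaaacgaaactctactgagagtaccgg
Eif2ak2, chr17:78882543-78882772, minus strand: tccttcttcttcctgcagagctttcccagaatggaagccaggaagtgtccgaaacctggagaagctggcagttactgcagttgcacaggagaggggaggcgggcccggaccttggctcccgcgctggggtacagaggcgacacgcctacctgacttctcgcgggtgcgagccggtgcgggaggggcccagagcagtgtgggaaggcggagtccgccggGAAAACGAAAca
Ifitm3, chr7:141010715-141010944, minus strand: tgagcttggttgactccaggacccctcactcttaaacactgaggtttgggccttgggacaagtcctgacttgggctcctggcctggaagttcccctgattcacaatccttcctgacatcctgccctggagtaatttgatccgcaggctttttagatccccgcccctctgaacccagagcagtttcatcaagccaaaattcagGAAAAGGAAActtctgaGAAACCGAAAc
Isg15, with the code of the ubiquitin-like protein, held 3 overlapping matches in 1 run that begins 78 bases before the start. Ifit1 held a pair of separate matches, beginning 104 and 85 bases before the start, and Rsad2 a single one 120 bases before it. In Eif2ak2 and Ifitm3 the matches lay just after the start. A match is a description of these letters, and binding was not measured.

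Before any stimulus the 38 genes spanned a wide range. Per kilobase of gene length, the highest mean levels in young control cells were those of surface and secreted proteins: Bst2, which tethers budding virus to the membrane, at 165 CPM per kb, Lgals3bp, a secreted galectin-binding glycoprotein, at 125, and Ifitm3, which blocks fusion of virus in endosomes, at 54.6. The lowest were Ifi44 at 0.123, the RNA exonuclease gene Isg20 at 0.276 and Oasl1, of the oligoadenylate synthetase-like family, at 0.284 CPM per kb. Every one of the 38 had at least 1 count in every library, and the lowest was Oasl1 with 1 count in replicate 1 of young cells on day 3 after β-glucan. After LPS the order was a different one. In young naive LPS cells Rsad2 led at 4.15e+03 CPM per kb, followed by Cmpk2, a nucleotide kinase encoded next to it, at 2.19e+03, Ifit2 at 2.04e+03, Ifit1 at 1.78e+03 and Isg15 at 1.36e+03, and Ifi44 was again lowest at 24 CPM per kb.

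As a share of all counts, the 38 genes together took 0.193% ± 0.023 (SD, n = 6) in young and 0.188% ± 0.014 (SD, n = 3) in aged controls. The share was 0.191% ± 0.012 in young and 0.197% ± 0.0066 in aged cells at 4 h of β-glucan, and 0.295% ± 0.074 and 0.266% ± 0.081 at 24 h. On day 3 after β-glucan it was 0.164% ± 0.0039 in young and 0.174% ± 0.0052 in aged cells (all SD, n = 3). With LPS the share was 5.01% ± 0.17 (SD, n = 6) in young and 5.04% ± 0.13 (SD, n = 3) in aged naive cells. In primed cells they were 5.11% ± 0.083 and 5.13% ± 0.39 (SD, n = 3 each). Rsad2 alone took 1.27% ± 0.071 (SD, n = 6) of all counts in young naive LPS cells.

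**Figure D1:**
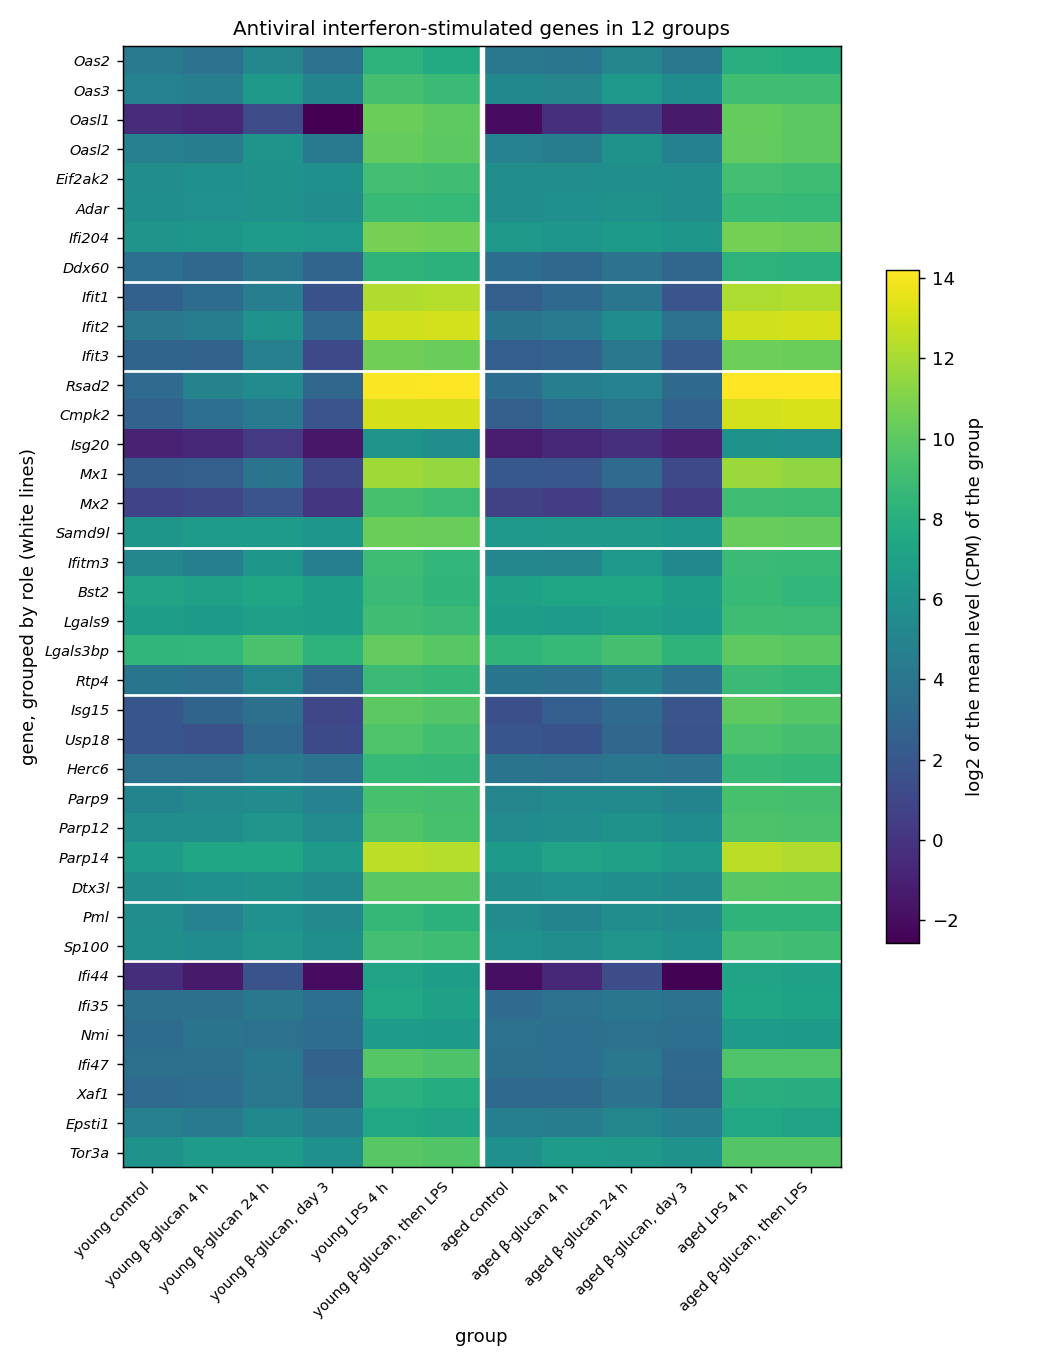
Mean level of each of the 38 genes, as log2 CPM on the colour scale, in the 12 groups (columns), with genes (rows) arranged by role. The 4 LPS columns hold the highest values of every gene, the 24 h β-glucan columns lie slightly above control for most, and Bst2 and Lgals3bp are among the genes already high in controls.

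After LPS for 4 h all 38 genes were higher than control at both ages. No harvest day and no saline exposure is given for naive LPS cells, whereas controls had saline and were harvested on day 3. Time and handling therefore cannot be told apart from LPS in this comparison. By edgeR's quasi-likelihood test with Benjamini-Hochberg adjustment, 38 of 38 were higher than control in young cells, where 65% of all genes tested changed and 30.3% were higher, and 38 of 38 in aged cells, where 55.5% changed and 26.6% were higher. The median log2 change was 4.73 in young and 4.52 in aged cells, against −0.10 and −0.08 over all genes tested. Folds ran from 3.12 (Bst2) to 1887 (Rsad2) in young and from 3.16 (Lgals3bp) to 5263 (Oasl1) in aged cells. The largest adjusted p by edgeR among the 38 was 2.3e-14 in young and 3.27e-10 in aged cells, and in every one of them each LPS library lay above each control library, as in 21.9% of all genes in young and 28.1% in aged cells. Markers of other cells or states moved with LPS as well. Of the 10 cycling genes 9 fell in young and 7 in aged cells (edgeR), with sums of 882 to 1111 CPM against 1388 to 1969 CPM in young and 1013 to 1096 CPM against 1479 to 1762 CPM in aged controls. Of the plasmacytoid dendritic markers 2 of 5 tested rose at each age (sums 289 to 358 CPM against 69.0 to 91.3 CPM in young cells), as did 2 of 4 conventional dendritic markers tested (7.80 to 14.9 CPM against 0.610 to 1.98 CPM). Macrophage markers moved too, with 5 of 10 higher and 2 lower in young cells and 4 higher and 2 lower in aged cells. At each age 1 of 6 neutrophil and 1 of 7 stromal markers tested rose, and 2 of 3 B cell markers tested fell in young cells. The part of these in the result was not tested.

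Effectors and IFIT genes stood at the top of the range and membrane proteins at the bottom. In young cells the median log2 change was 8.99 for the 6 effector genes, 8.90 for the 3 IFIT genes, 7.64 for the 3 genes of the ISG15 cycle, 4.49 for the 8 sensors and RNA-modifying enzymes, 4.29 for the 3 PARP genes with Dtx3l, 3.85 for 7 other genes, 3.17 for the PML body genes Pml and Sp100, and 2.32 for the 5 membrane and surface proteins. In aged cells the same groups had medians of 9.004, 9.06, 7.53, 4.05, 4.20, 4.02, 3.03 and 2.24.

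Rsad2 encodes viperin, which makes a nucleotide that ends viral RNA chains. It stood at 7.20 to 14.1 CPM (median 9.01) in the 6 young controls and at 17039 to 20679 CPM (median 17396) in the 6 young naive LPS libraries. In aged cells it was 11.2, 15.5 and 6.998 CPM in controls and 18335, 17719.5 and 18585 CPM with LPS. The groups were thus far apart at both ages, with log2 changes of 10.88 ± 0.33 in young (edgeR adjusted p = 1.53e-23) and 10.68 ± 0.46 in aged cells. Mx1 encodes a dynamin-like GTPase against influenza virus, of which laboratory strains such as C57BL/6 carry a defective allele. It went from 2.66 to 9.67 CPM in young controls to 3501 to 3816 CPM with LPS, a log2 change of 9.47 ± 0.42, and in aged cells from 4.01, 6.25 and 2.23 CPM to 3489, 3173 and 3090.3 CPM. Isg20, an RNA exonuclease, was among the lowest per kilobase, at 0.342 to 0.796 CPM in young controls and 53.0 to 83.4 CPM with LPS, yet its log2 change was 7.07 ± 0.21.

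Ifit1, which binds viral RNA that lacks the host cap structure, stood at 4.19 to 11.1 CPM in young controls and 4261 to 5435 CPM with LPS. In aged cells it was 6.68, 7.88 and 2.17 CPM in controls and 4568, 4263 and 4715 CPM with LPS. Its log2 changes were 9.57 ± 0.38 and 9.70 ± 0.54. Ifit1, Ifit2 and Ifit3 lie side by side on chromosome 19, and reads of Ifit3 and its near-identical copy may have been shared by the authors' counting. Isg15 stood at 1.75 to 6.13 CPM in young controls and 907 to 1247 CPM with LPS, and its log2 changes were 8.14 ± 0.31 in young and 8.55 ± 0.44 in aged cells. Usp18, the protease that removes ISG15 and also restrains the interferon receptor, went from 3.18 to 4.81 CPM to 633 to 918 CPM, a log2 change of 7.64 ± 0.20 in young and 7.53 ± 0.28 in aged cells.

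The sensors varied most among themselves. Oasl1, in mice an inhibitor of Irf7 translation, stood at 0.171 to 1.20 CPM in young controls and 1219 to 1569 CPM with LPS, and in aged cells at 0.339, 0.302 and 0.0977 CPM against 1126, 1239.8 and 1238 CPM. Its log2 changes of 10.84 ± 0.30 and 12.36 ± 0.47 were next to that of Rsad2 in young cells and the largest of the set in aged cells, and they rest on few counts in the controls. Oas3, an oligoadenylate synthetase, went from 21.7 to 45.7 CPM to 474 to 679.7 CPM in young cells, a log2 change of 4.35 ± 0.24. Ifi204, a DNA sensor of a multigene family whose members may share reads, went from 44.2 to 96.0 CPM to 1599 to 1799 CPM (log2 change 4.64 ± 0.14). Eif2ak2, the RNA-activated kinase that halts translation, rose by 3.48 ± 0.096, from 36.7 to 61.9 CPM to 547 to 632 CPM. Adar, which edits adenosines in double-stranded RNA, rose by 3.07 ± 0.068 from 47.8 to 61.8 CPM to 410.1 to 519 CPM, the smallest change among the 8 sensors in young cells (edgeR adjusted p = 9.94e-34).

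Among membrane proteins, Ifitm3 went from 27.1 to 50.9 CPM in young controls to 400.2 to 612 CPM with LPS, a log2 change of 3.80 ± 0.17. Bst2 and Lgals3bp, already high in controls, changed least. Bst2 stood at 97.2 to 175 CPM in young controls and 391 to 543 CPM with LPS (log2 change 1.64 ± 0.084, edgeR adjusted p = 5.13e-21), and Lgals3bp at 307 to 405 CPM and 1012 to 1312 CPM (1.68 ± 0.11). Parp14, an ADP-ribosyltransferase, went from 71.7 to 127 CPM to 5437 to 6209.6 CPM (5.81 ± 0.14). Dtx3l, a ubiquitin ligase that works with Parp9, rose by 4.20 ± 0.14 on the log2 scale. Dtx3l and Parp9 overlap by 681 bases on opposite strands of chromosome 16, and the strand setting of the count is not given in the sources used here. Pml, the scaffold of nuclear bodies, rose by 2.91 ± 0.11, and Tor3a, an ATPase of the torsin family, by 3.82 ± 0.092.

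The size of these changes depends on the scaling. Under total-count scaling the median of all genes in the young LPS comparison moved by −0.80, the members' median was 3.92, and all 38 remained called, at both ages. Within young replicates 1 to 3 the median was 4.48 and within replicates 4 to 6 it was 4.85, with 38 of 38 called in each. A comparison at equal exposure, LPS for 4 h against β-glucan for 4 h, gave 38 of 38 higher with LPS in young cells, where 53.6% of all genes changed and 24.2% were higher, and 38 of 38 in aged cells, where 51.6% changed and 23.9% were higher. Folds in that comparison began at 2.83 for Lgals3bp in young cells and reached 1851 for Oasl1.

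At 4 h of β-glucan a small part of the set differed from control, and in both directions. In young cells 7 genes rose and 1 fell, that is 8 of 38, where 12.1% of all genes tested changed (7.45% higher and 4.61% lower, edgeR). The median log2 change was 0.10 for the 38 against 0.00 for all genes, and −0.02 against −0.11 under total-count scaling. In aged cells 3 genes rose and 1 fell, 4 of 38, where 6.47% of all genes changed (4.87% higher and 1.59% lower), and the median was 0.08. In young cells 7 genes lay above every control and 2 below, as 8.49% and 6.06% of all genes did, and in aged cells 12 above and 1 below, as 12.7% and 9.78% of all genes did. DESeq2 called 6 higher and 1 lower in young and 4 higher and 1 lower in aged cells. The control was harvested on day 3, so these cells also differ from it in time.

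Rsad2, Tor3a and Parp14 rose at both ages. Rsad2 stood at 35.4, 25.4 and 29.8 CPM in young and 23.0, 23.2 and 26.4 CPM in aged cells at 4 h, above every control of the same age (log2 change 1.79 ± 0.30, edgeR adjusted p = 6.28e-05, and 1.12 ± 0.33, adjusted p = 0.0317). Tor3a stood at 110.1, 103 and 95.8 CPM against 57.7 to 70.7 CPM in young controls, and at 98.1, 95.7 and 106 CPM against 62.3, 54.5 and 58.4 CPM in aged controls (0.80 ± 0.11, edgeR adjusted p = 3.56e-07, and 0.78 ± 0.12, adjusted p = 6.83e-06). Its groups did not overlap at either age, which was the case at 24 h as well. Parp14 stood at 195, 142 and 146 CPM in young and 148, 144 and 148 CPM in aged cells (0.55 ± 0.15, edgeR adjusted p = 0.0117, and 0.60 ± 0.17, adjusted p = 0.0196). In young cells Isg15 at 8.17, 5.84 and 6.94 CPM (1.19 ± 0.35, edgeR adjusted p = 0.0225), Cmpk2 (1.18 ± 0.32, adjusted p = 0.0134), Nmi, an interferon-inducible adaptor protein, (0.48 ± 0.14, adjusted p = 0.0188) and Adar (0.24 ± 0.084, adjusted p = 0.0496) also rose. The 5.84 CPM of Isg15 lies within the range of the young controls, whose highest was 6.13 CPM.

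Of the 38 log2 changes, 14 in young and 17 in aged cells were below 0. Pml fell at both ages, against the direction of the other called genes. It stood at 31.6, 27.5 and 26.2 CPM in young cells at 4 h, below all 6 controls (38.8 to 69.4 CPM), and at 32.9, 28.6 and 35.1 CPM in aged cells, below 37.1, 53.3 and 47.2 CPM. The log2 changes were −0.66 ± 0.15 (edgeR adjusted p = 0.00138) and −0.51 ± 0.15 (adjusted p = 0.0358). Ifitm3 was also below every control in young cells, at 26.4, 26.2 and 23.4 CPM, the lowest control being 27.1 CPM, but was not called. In young cells the calls of Rsad2, Tor3a and Pml held in every alternative, and the total was 4 without β-glucan replicate 1 and 5 without replicate 3, while the call of Adar was lost in 15 of 18 alternatives. In aged cells only the call of Tor3a held in every alternative, and 1 gene in total was called without control replicate 3 or without any 1 of the 3 β-glucan libraries.

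At 24 h of β-glucan the set stood above control as a whole, at far lower levels than with LPS. In young cells 28 of 38 genes rose and 0 fell, where 11.5% of all genes tested changed and 7.79% were higher (edgeR), and DESeq2 called 28 too. In aged cells 18 rose and 0 fell, where 5.22% changed and 4.02% were higher, and DESeq2 called 18. The log2 change was above 0 for all 38 genes at both ages, with a median of 0.83 in young and 0.69 in aged cells against −0.00 and 0 for all genes. In young cells 16 genes lay above every control, as 5.11% of all genes did, and in aged cells 15, as 12% of all genes did. At this time, too, control cells were of another harvest day.

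IFIT and effector genes had the largest medians at both ages. In young cells 3 of 3 IFIT genes rose (median log2 change 2.14), 5 of 6 effectors (1.52), 2 of 3 genes of the ISG15 cycle (1.40), 4 of 5 membrane proteins (1.05), 6 of 8 sensors (0.86), 5 of 7 other genes (0.73), 3 of 4 of the PARP and Dtx3l group (0.54) and 0 of 2 PML body genes (0.37). In aged cells the counts were 3 of 3 IFIT genes (1.63), 2 of 6 effectors (1.13), 2 of 3 of the ISG15 cycle (1.11), 3 of 5 membrane proteins (0.84), 4 of 8 sensors (0.62), 3 of 7 other genes (0.63), 1 of 4 of the PARP and Dtx3l group (0.38) and 0 of 2 PML body genes (0.23). The largest rises in young cells were Rsad2 (2.41 ± 0.30, edgeR adjusted p = 1.35e-06), Ifi44 (2.27 ± 0.57, adjusted p = 0.00826) and Ifit3 (2.20 ± 0.40, adjusted p = 0.00038). In aged cells they were Ifi44 (3.38 ± 0.79, edgeR adjusted p = 0.00869), Oasl1 (2.70 ± 0.59, adjusted p = 0.00475) and Isg15 (1.79 ± 0.38, adjusted p = 0.00375).

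Ifit1 stood at 36.4, 12.9 and 24.4 CPM in the 3 young libraries at 24 h, all above the highest control of 11.1 CPM, and its log2 change was 2.14 ± 0.37 (edgeR adjusted p = 0.000203). In aged cells it was 30.6, 11.5 and 6.83 CPM, of which the last lay among the controls (6.68, 7.88 and 2.17 CPM), with a log2 change of 1.59 ± 0.42 (edgeR adjusted p = 0.0199). Rsad2 showed the same spread, at 69.7, 25.5 and 44.3 CPM in young and 52.1, 20.4 and 13.8 CPM in aged cells, where the change was 1.37 ± 0.33 (edgeR adjusted p = 0.00932). Of the effectors, Mx1 at 26.2, 5.52 and 13.3 CPM rose in young cells (1.58 ± 0.42, edgeR adjusted p = 0.0129), although 5.52 CPM lay within its control range, and Isg20 at 1.55, 0.454 and 1.47 CPM rose as well (1.46 ± 0.31, adjusted p = 0.00147). Neither passed in aged cells, where the values were 1.30 ± 0.48 (edgeR adjusted p = 0.128) and 0.97 ± 0.36 (adjusted p = 0.12).

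Isg15 stood at 18.3, 6.90 and 10.97 CPM in young cells (1.98 ± 0.34, edgeR adjusted p = 0.00015) and 15.9, 9.20 and 4.34 CPM in aged cells, all above the controls of the same age. Usp18 stood at 13.6, 7.69 and 5.68 CPM in young and 10.6, 8.52 and 4.72 CPM in aged cells, again above all controls (1.40 ± 0.23, edgeR adjusted p = 6.97e-05, and 1.11 ± 0.25, adjusted p = 0.0061). Among the sensors, Oas3 stood at 119.6, 55.5 and 98.3 CPM in young and 137, 66.7 and 47.5 CPM in aged cells, each above every control (1.80 ± 0.27, edgeR adjusted p = 2.96e-05, and 1.14 ± 0.30, adjusted p = 0.0198). Isg15, Usp18 and Oas3 were thus above control in all 6 libraries. Oasl1 rose at both ages from low counts, to 3.08, 1.52 and 2.59 CPM in young cells (1.83 ± 0.40, edgeR adjusted p = 0.00207) and 3.06, 0.916 and 0.398 CPM in aged cells. Adar rose slightly at both ages (0.40 ± 0.084, edgeR adjusted p = 0.000837, and 0.31 ± 0.090, adjusted p = 0.0336), and Ifi204 rose in young cells (0.47 ± 0.16, adjusted p = 0.0447), a call lost in 11 of 18 alternatives. Eif2ak2 at 65.0, 63.9 and 56.8 CPM did not pass (0.17, edgeR adjusted p = 0.414), the smallest change of the set in young cells.

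Ifitm3 stood at 112, 45.7 and 83.8 CPM in young cells, 1 of them within the control range of 27.1 to 50.9 CPM, and at 118, 75.3 and 57.6 CPM in aged cells, all above 38.8 CPM, the highest control. Its log2 changes were 1.44 ± 0.20 (edgeR adjusted p = 5.53e-06) and 1.20 ± 0.21 (adjusted p = 0.000572). Lgals3bp stood at 843, 447 and 739.9 CPM in young and 859, 497 and 463 CPM in aged cells, above all controls (1.05 ± 0.14, edgeR adjusted p = 1.06e-06, and 0.84 ± 0.15, adjusted p = 0.000321). Bst2 at 188, 146 and 153 CPM rose by 0.33 ± 0.11 in young cells (edgeR adjusted p = 0.0399), a call lost in 9 of 18 alternatives, and 2 of these libraries lay within the control range. Bst2 missed the threshold in aged cells (0.29 ± 0.12, edgeR adjusted p = 0.16). Tor3a rose at both ages, to 124, 76.1 and 108 CPM and 119, 79.9 and 76.1 CPM (0.80 ± 0.11, edgeR adjusted p = 1.08e-06, and 0.65 ± 0.12, adjusted p = 0.000309). Parp14 rose in young cells to 207, 116 and 167 CPM (0.57 ± 0.15, edgeR adjusted p = 0.0103) and stood at 172, 117 and 103 CPM in aged cells (0.43 ± 0.17, adjusted p = 0.138). Dtx3l (0.29, edgeR adjusted p = 0.286) and Pml (0.40, adjusted p = 0.0619) did not pass in young cells, and Pml, which had fallen at 4 h, stood at 70.8, 44.97 and 61.7 CPM.

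**Figure D2:**
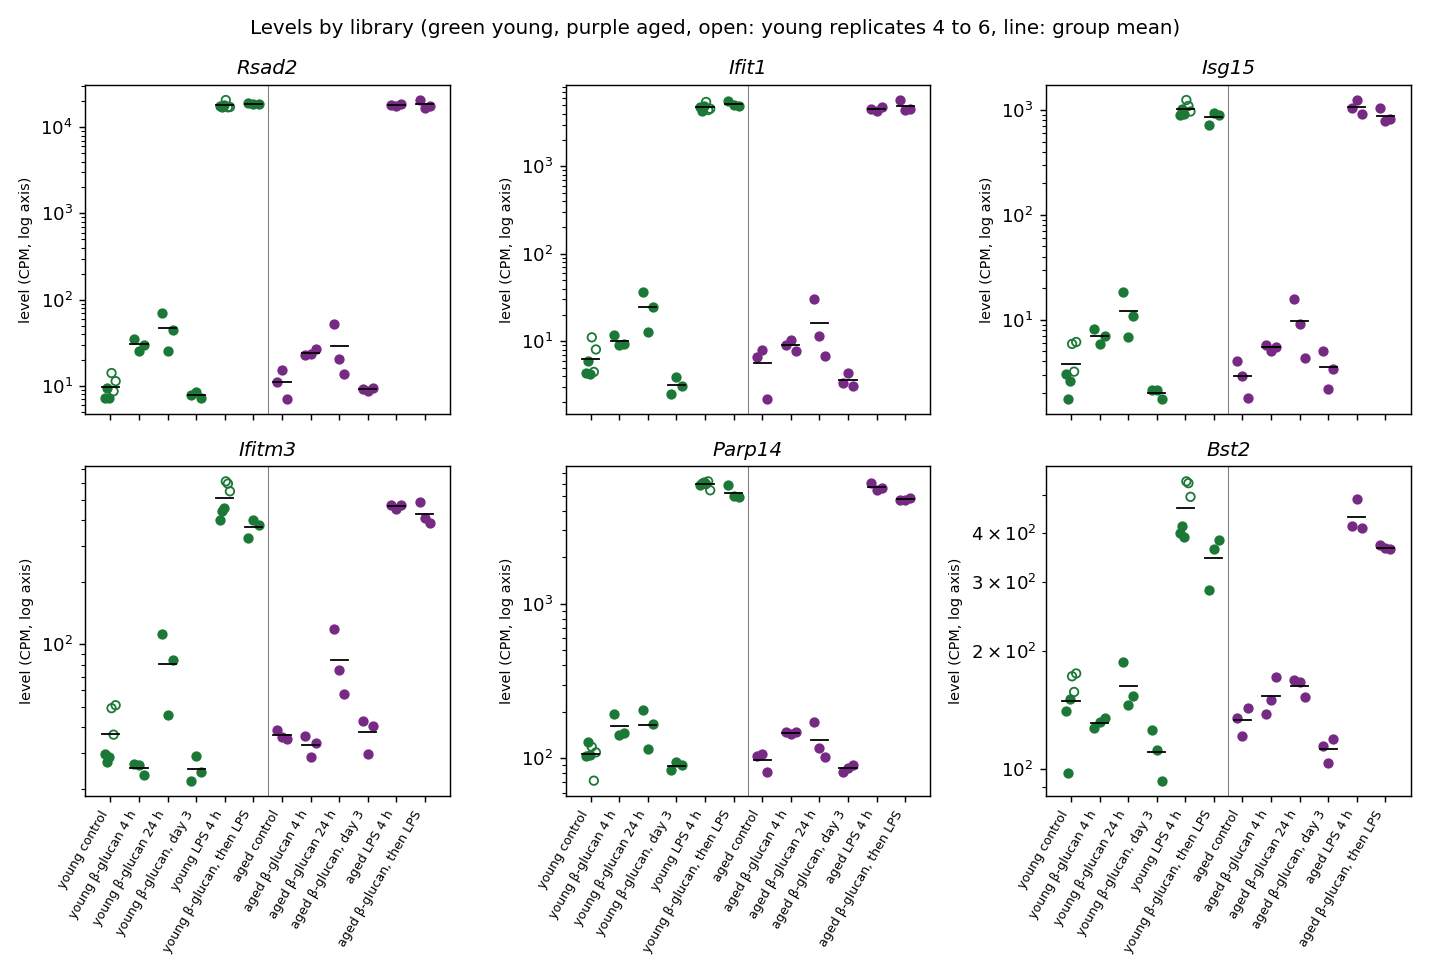
Level in CPM (log axis) of Rsad2, Ifit1, Isg15, Ifitm3, Parp14 and Bst2 in every library, by group, with open points for young replicates 4 to 6 and a line at each group mean. The LPS groups lie far above all others for Rsad2, Ifit1, Isg15 and Parp14, and less far for Ifitm3 and Bst2. For Bst2 the young primed LPS libraries are at 286, 365 and 384 CPM and the young 24 h libraries at 188, 146 and 153 CPM. The 24 h β-glucan groups are wider than the LPS groups for Ifit1, at 36.4, 12.9 and 24.4 CPM in young cells.

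The 24 h groups were uneven, and the same libraries were high for nearly all genes. In young cells the order of the libraries was replicate 1, then 3, then 2 for 34 of 38 genes, and replicate 1, then 2, then 3 for the other 4. In aged cells it was replicate 1, then 2, then 3 for 35 genes. Replicate 1 lay above every control for 38 of 38 genes at both ages, as 19.5% of all genes did in young and 32.6% in aged cells. Young replicates 2 and 3 did so for 18 and 33 genes (all genes 14.4% and 18.7%), and aged replicates 2 and 3 for 28 and 15 genes (26.8% and 27.8%). The median log2 difference from the control mean was 1.18, 0.30 and 0.73 in young replicates 1, 2 and 3, and 1.28, 0.46 and 0.16 in the aged ones.

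By role, the IFIT genes showed the steps most clearly, with medians of 2.78, 0.80 and 1.96 in young and 2.65, 1.23 and 0.41 in aged replicates 1, 2 and 3. The effector genes had 2.03, 0.45 and 1.49 in young and 1.89, 0.87 and 0.01 in aged cells. The sensors ran from 0.35 to 1.31 in young and from 0.16 to 1.37 in aged cells, and the PML body genes from 0.02 to 0.59 and from 0.01 to 0.58. In all 8 roles replicate 1 had the highest median at both ages. The median spread of the 38 genes was 0.49 (SD of log2 CPM, n = 3) in young and 0.54 in aged cells at 24 h, against 0.25 and 0.23 over all genes. In controls it was 0.35 in young (n = 6) and 0.27 in aged cells, against 0.32 and 0.21 over all genes. With naive LPS it was 0.12 at both ages, against 0.30 and 0.21 over all genes. At 24 h 28 of the 38 in young and 33 in aged cells were more spread than the median gene. In controls 22 and 24 were, and with naive LPS 0 and 2 were.

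**Figure D3:**
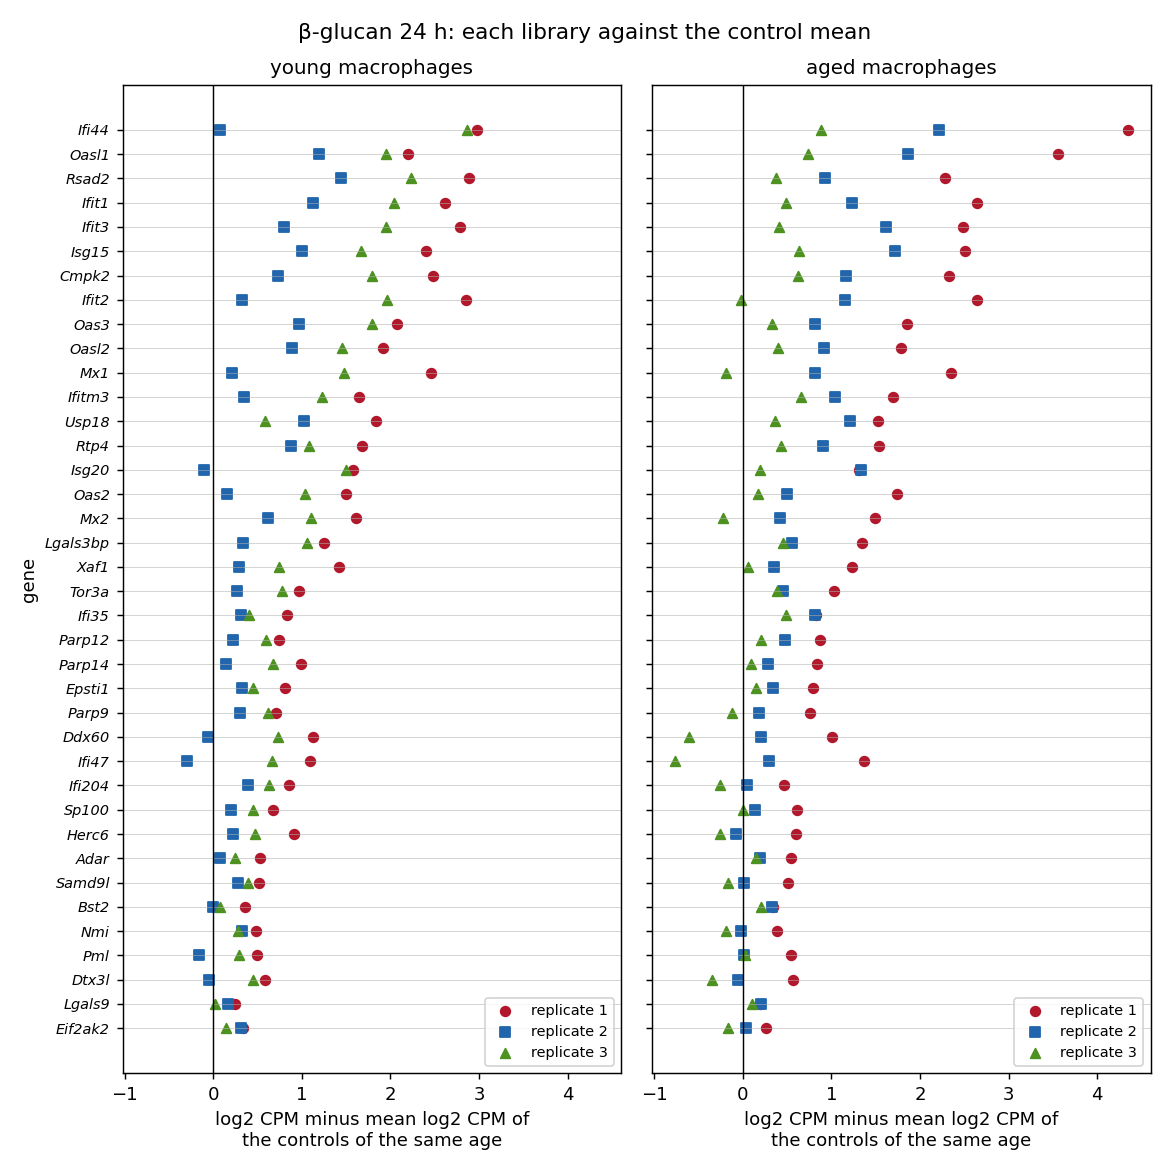
Log2 level of each of the 38 genes minus the mean of the controls of the same age in each of the 3 libraries at 24 h of β-glucan, young and aged. Replicate 1 is above 0 for all 38 genes at both ages, with a median of 1.18 in young and 1.28 in aged cells, and aged replicate 3 has a median of 0.16.

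These counts rest in part on replicate 1. Without it 15 genes were called in young cells (median 0.60) and 4 in aged cells (median 0.30), which were Ifi35, Ifitm3, Lgals3bp and Tor3a. The aged count was 10 without control replicate 3 and 24 without β-glucan replicate 3, and with a spread estimated from the compared groups alone the counts were 14 in young and 0 in aged cells. The summed level of 10 genes of cycling cells also differed between these libraries, at 852, 1704 and 848 CPM in young and 793, 1602 and 1534 CPM in aged replicates 1, 2 and 3, against 1388 to 1969 CPM in young and 1479 to 1762 CPM in aged controls. Young replicates 1 and 3 had lower cycling sums than replicate 2 and higher median differences of the antiviral genes from control (1.18 and 0.73 against 0.30). Aged replicate 1 had the lowest sum and the highest median. The order did not hold throughout, as aged replicate 3 had a lower sum than replicate 2 and also a lower median (0.16 against 0.46). By edgeR 1 of 10 cycling genes was lower in young and 0 in aged cells. Of 4 conventional dendritic markers tested, 2 rose in young cells (sum 1.31 to 2.50 CPM against 0.610 to 1.98 CPM in controls) and 0 in aged cells. Macrophage markers rose for 4 of 10 in young and 1 of 10 in aged cells. Of 5 plasmacytoid markers tested 1 rose and 1 fell in young cells and 1 fell in aged cells. Of 7 stromal markers tested 1 fell in young cells. The part of these in the result was not tested.

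On day 3 after β-glucan no gene of the set was called against control. In young cells 0 of 38 were called by edgeR, where 0.782% of all genes were, with 8 at an unadjusted p under 0.05, and DESeq2 also called 0. In aged cells 0 of 38 were called, where 0.221% of all genes were, with 2 at an unadjusted p under 0.05, and DESeq2 called 0. Without the term for the replicate sets Ifit3 alone was called lower in young cells. The log2 change was below 0 for 31 genes in young cells (median −0.24, all genes −0.01) and for 27 in aged cells (median −0.07, all genes −0.00). In young cells Ifit1 stood at 2.46, 3.87 and 3.07 CPM, below the lowest control of 4.19 CPM, and Mx1 at 2.06, 2.03 and 1.94 CPM, below 2.66 CPM. These and Usp18 and Ifi47, 4 in all, lay under every young control, as 2.89% of all genes did. In aged cells Ddx60 and Bst2, 2 in all, lay under every control, as 6.28% of all genes did, and Ifi35, 1 gene, above every control, as 6.11% did. Rsad2 stood at 7.92, 8.44 and 7.27 CPM, within the control range, and the furthest from control was Oasl1 with −1.93 ± 0.67 (edgeR adjusted p = 0.236). Isg15 stood at 2.13, 2.13 and 1.77 CPM in young and 5.04, 2.16 and 3.40 CPM in aged cells. A rise like that of 24 h was thus not detected on day 3 at either age.

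The comparison of primed with naive LPS cells asks whether earlier β-glucan changes the response of these genes to LPS. Primed cells were harvested on day 3, and no harvest day is given for naive LPS cells. Time and handling therefore cannot be told apart from priming in it. By edgeR 0 of 38 differed in young cells, where 3.61% of all genes did, with 2 at an unadjusted p under 0.05, and 0 of 38 in aged cells, where 0.986% did, with 1 at an unadjusted p under 0.05. DESeq2 called 0 at both ages. Most differences were slightly below 0, in 33 of 38 genes in young (median −0.19) and 32 of 38 in aged cells (median −0.12). In young cells 13 genes lay lower in all 3 primed libraries than in all 6 naive ones, among them Mx1, Mx2, Oasl1 and Bst2, as 6.22% of all genes did, and 0 lay higher, as 5.83% of all genes did. In aged cells 6 did so, as 7.9% of all genes did: Oasl1, Mx1, Bst2, Lgals3bp, Parp14 and Xaf1. Without the term for the replicate sets 2 genes of young cells, Bst2 and Ifi35, were called lower, and with the compared groups fitted alone 3, Mx1, Mx2 and Oasl1.

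Rsad2 stood at 19020.1, 18740.1 and 18756 CPM in young primed cells and 20759.6, 16876 and 17716 CPM in aged ones, and overlapped the naive libraries at both ages. Its log2 difference was 0.19 in young cells with a 95% interval from −0.38 to 0.77. Ifit1 was 5503, 4989.9 and 4881 CPM in young primed cells (0.28, 95% interval −0.42 to 0.97), so the IFIT genes had a median above 0 (0.23) where the other roles had medians below it. Mx1 stood at 3082, 3026 and 3049 CPM in young primed against 3501 to 3816 CPM in naive cells, and at 3009, 2738 and 2628 CPM in aged primed against 3489, 3173 and 3090.3 CPM in naive cells. Parp14 stood at 5876, 4956 and 4884 CPM in young and 4716, 4684 and 4828 CPM in aged primed cells, the latter all below the aged naive values of 6019.8, 5497 and 5667 CPM. Bst2, at 286, 365 and 384 CPM in young and 372, 367 and 364 CPM in aged primed cells, had log2 differences of −0.22 (edgeR adjusted p = 0.3) and −0.26 (95% interval −0.49 to −0.03, adjusted p = 0.36). A reduction of this size was therefore neither called nor excluded by these intervals.

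**Figure D4:**
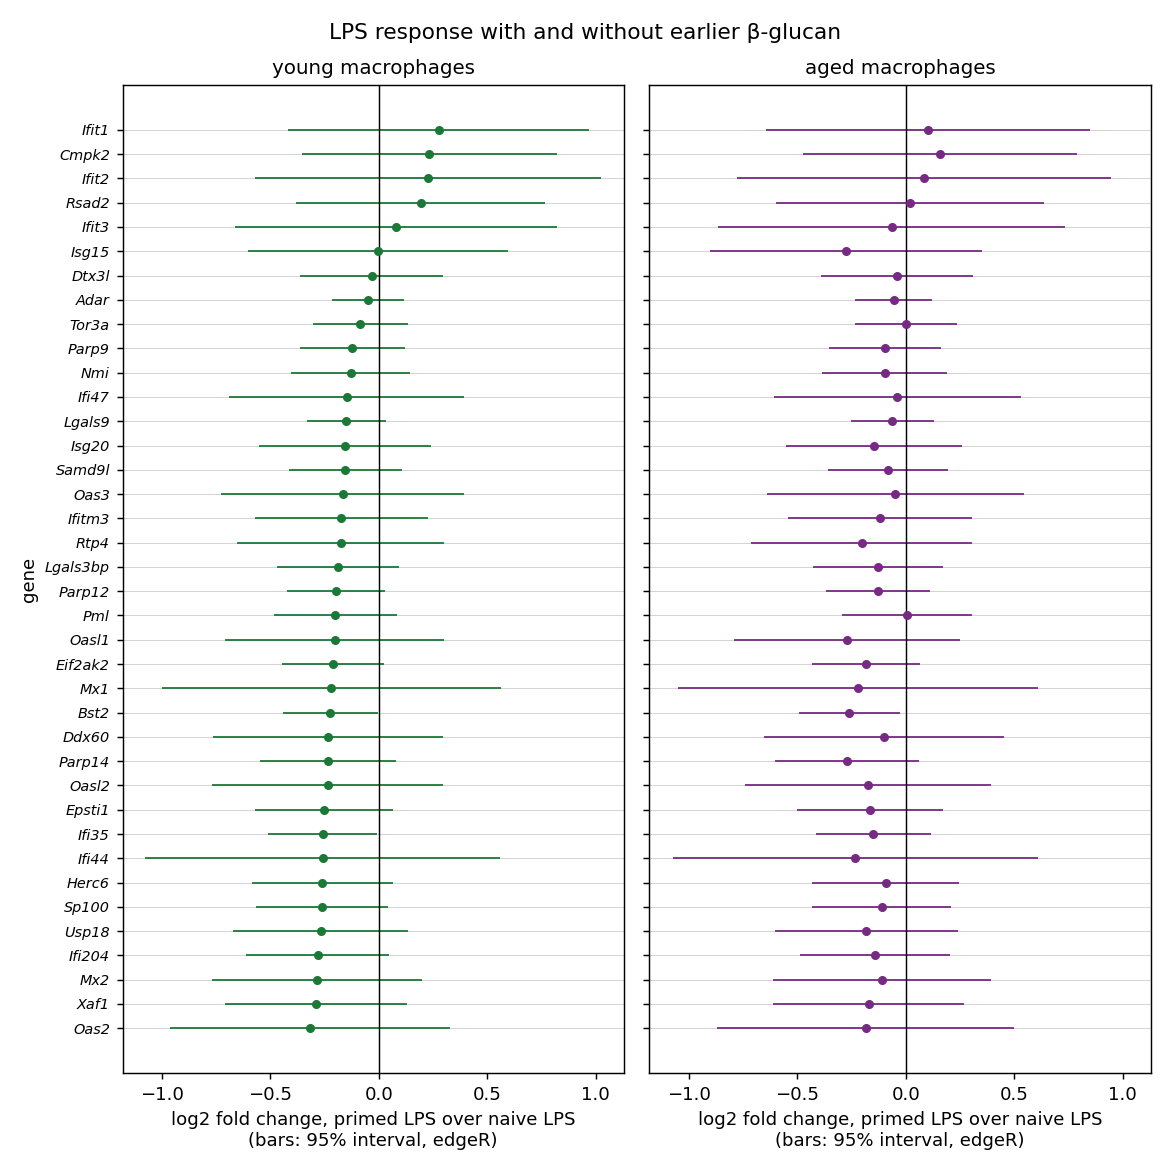
Log2 difference of primed from naive LPS cells with its 95% interval for each of the 38 genes, young and aged. Points lie below 0 for 33 genes in young and 32 in aged cells, none passed the adjusted threshold, and the intervals for Rsad2 and Ifit1 in young cells reach from −0.38 to 0.77 and from −0.42 to 0.97.

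No difference between ages was called for any of the 38 genes by edgeR or DESeq2. Of all genes tested, edgeR called 0.442% between aged and young controls, 0.00567% at 4 h, 0.017% at 24 h and 0.0113% on day 3 of β-glucan, 0.895% with naive LPS and 0.0283% with primed LPS, and 0 of 38 members each time. Members at an unadjusted p under 0.05 by edgeR numbered 4, 0, 4, 1, 0 and 0. Among young groups only control and naive LPS had replicates 4 to 6. Placing the young mean midway between the replicate sets thus shifted the other young groups by an offset not measured in them. With young replicates 4 to 6 left out, the median difference between ages at 24 h was −0.18, with 34 genes lower in aged cells. At 24 h of β-glucan 36 of 38 genes were lower in aged cells (median log2 difference −0.27, all genes −0.00), with Rsad2 at −0.82 ± 0.33 (edgeR adjusted p = 1), and the libraries of the ages overlapped for all 38 genes, whereas 4.37% of all genes were higher and 4.28% lower in every aged library. The age difference of the 24 h response itself was −1.04 ± 0.44 for Rsad2 (95% interval −1.94 to −0.14, edgeR adjusted p = 1). Without young replicate 1 the median difference between ages was −0.04, and without aged replicate 1 it was −0.60, with Rsad2, Oasl1 and Lgals3bp, 3 genes, called lower in aged cells.

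On day 3 after β-glucan 12 genes, including Rsad2, Ifit2, Ifit3, Isg15, Usp18 and Ifitm3, were higher in all aged than in all young libraries, as 7.44% of all genes were, and none passed the test (median of the 38 log2 differences 0.11). At 4 h the separation ran in both directions: 5 genes, Ifit2, Cmpk2, Samd9l, Isg15 and Nmi, lay lower in all aged libraries, as 7.24% of all genes did, and 3, Oas3, Ifitm3 and Bst2, higher, as 7.71% did. Ifit2, Cmpk2 and Isg15 lay on opposite sides at 4 h and on day 3. No gene of the set was called between ages at either time, and at 4 h 0 of 38 had an unadjusted p under 0.05 (edgeR). Whether the age difference changed between these times was not tested. With naive LPS the median was −0.08. With young replicates 4 to 6 left out it was 0.0047, with 21 genes higher and 17 lower in aged cells. Mx1 and Mx2, 2 of 38, lay lower in every aged than in every young library, as 2.02% of all genes did. With primed LPS Mx1 and Parp14, 2 genes, lay lower, as 6.07% of all genes did, and Oas3, 1 gene, higher, as 5.29% did. The age differences of the LPS response and of the effect of priming were called for 0 of 38 genes, with 1 and 0 at an unadjusted p under 0.05 by edgeR, where 0% and 0.00567% of all genes were called, and DESeq2 called 0 for both.

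Among the genes upstream of the set, interferon-β itself was found with LPS and hardly elsewhere. Ifnb1 had 0 counts in every control library, 0 to 4 in young and 0 in aged libraries at 4 h of β-glucan, and 0 to 1 in young and 0 in aged libraries at 24 h. It had 448 to 898 counts in young and 344 to 443 in aged naive LPS libraries, and 250 to 398 and 263 to 479 in primed ones. Ifna4 had 0 counts in every library, and Ifna2 had 6 in all, in young naive LPS cells. A count of 0 in a library allows up to 3 counts by counting error, and earlier times were not measured.

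Of 30 pathway genes outside the set, 28 were tested. With LPS 23 rose and 4 fell in young cells and 24 rose and 4 fell in aged cells (edgeR). Of all genes tested, 30.3% and 26.6% were higher and 34.7% and 28.9% lower, in young and aged cells. Among the genes that rose was Ifnb1, from 0 counts in every young control to 448 to 898 in young naive LPS libraries. Of the rest, the feedback inhibitors Socs3 and Socs1 (7.48 and 7.47 on the log2 scale in young cells) and the transcription factor Irf7 (6.57) led the rises. The adaptor genes Mavs (−1.12) and Tmem173 (−0.85), which encodes STING, the interferon-γ receptor gene Ifngr1 (−0.96) and Irf3 (−0.37) fell in young cells. At 4 h of β-glucan 9 rose in young and 7 in aged cells and 0 fell, led by Socs3 (3.33 ± 0.33 and 2.76) and Irf1 (1.52 ± 0.20 and 1.54). At 24 h 13 rose in young and 6 in aged cells and 0 fell, and the leading genes were Irf7 (2.21 ± 0.32 and 1.49), which drives interferon genes, and Zbp1 (1.99 ± 0.41 and 2.29), a sensor of nucleic acids. Of the 38 antiviral genes, 28 rose in young and 18 in aged cells at 24 h, and 7 and 3 at 4 h. Of all genes tested, 7.79% in young and 4.02% in aged cells were higher at 24 h, and 7.45% and 4.87% at 4 h. Whether any of these pathway genes has a part in the changes of the set was not tested. On day 3 only Ifngr1 was called, lower in young cells (−0.35), and 0 of 28 were called between primed and naive LPS cells or between ages by edgeR.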

How the data were processed

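Transcripts of 42 libraries in 12 groups were analysed from the gene count table that the authors deposited, which holds raw whole-number counts. Reads were aligned with STAR to mm10, per the submitters' processing notes. The version, the counting program, the annotation and the strand setting are not given in the sources used here. The authors also deposited FPKM values, used here to derive an alternative set of library sizes and nothing else. Columns were matched to samples by the column label in each sample's description.

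Counts were fitted in R 4.3.3 with edgeR 4.0.16, after TMM scaling (factors 0.667 to 0.777 with LPS and 1.13 to 1.28 without) and filterByExpr with a minimum count of 10. A single quasi-likelihood model (glmQLFit, robust, trended dispersion, legacy off) had the 12 groups and a term for young replicates 4 to 6. For comparisons with aged cells the young mean was placed midway between the replicate sets. Each of 21 comparisons was adjusted by Benjamini-Hochberg over all 17648 genes tested, with a threshold of 0.05. A gene is said to rise or fall where it passed it. Each standard error is the absolute log2 change divided by the root of its F value, and log2 CPM used a prior count of 2. Comparisons within an age share their controls. The deposited values are counts and FPKM, and all log2 values were computed here.

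The 38 members, the other gene lists, the tests and the rule for named genes were chosen with earlier results of these data known. The rule took 18 members of all roles for values by library, the 3 called members with the largest rise and fall in each comparison, members called against the majority, uncalled members where there were 5 or fewer, and up to 4 pathway genes a comparison. Some genes not in the rule are named as members of a count, after their values were seen.

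On simulated counts for young β-glucan at 24 h against control (17174 genes) the model recovered 53.7% of genes changed 1.5-fold, 79.1% changed 2-fold and 98.5% changed 4-fold, with 4.94% of calls false. Genes were drawn independently in it, with a single spread per gene for all groups and no difference between replicate sets. It did not imitate the uneven 24 h libraries, so these rates may not hold for them. Alternatives were other library scalings, no count filter, DESeq2 1.42.0, no term for the replicate sets, young replicates 4 to 6 left out, the compared groups fitted alone, a replicate block and each replicate left out in turn. Library sizes implied by FPKM and young replicates 1 to 3 left out were added after seeing the data. No 2 libraries of the same group were alike within sampling noise, and libraries of different groups were not compared in this way. Promoter windows came from RefSeq tables. Figures were drawn with matplotlib 3.10.9.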

Additional observations from a re-analysis of the deposited data

Results flagged for a closer look

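In groups of 4 to 10 libraries, here the young control and young naive LPS groups with 6 each, 5 of 76 levels had a highest or lowest library far from the other 5 by Dixon's criterion, which chance passes in about 1 of 20 groups. Ddx60 stood at 5.33 CPM in young control replicate 5, against 11.2 to 13.7 CPM in the other controls, and Sp100 in the same library at 31.7 CPM against 54.3 to 64.3 CPM. Mx2 stood at 3.57 CPM in young control replicate 4, against 1.03 to 1.67 CPM. With naive LPS, Rsad2 stood at 20679 CPM in young replicate 4, against 17039 to 18204 CPM, and Ifi44 at 108 CPM in young replicate 1, against 143 to 163 CPM.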

How the results depend on the processing

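All LPS comparisons with control or with β-glucan at 4 h kept 38 of 38 genes called in every alternative run. For genes tallied in treatment comparisons within an age, 1577 alternative values kept direction and call, 112 lost the call, 10 gained it and 0 changed direction. Of day 3 this tally held Oasl1 and Rsad2 of young cells alone, and it held no difference between ages. Directions did change there. Without young replicate 1 at 24 h, 12 genes were higher in aged cells, against 2 in the main run. The age difference of the 24 h response was then above 0 for 21 genes, against 2. Left-out replicates gave 4 to 8 called genes for young β-glucan at 4 h, 15 to 33 for young 24 h, 1 to 3 for aged 4 h, 4 to 24 for aged 24 h, and 0 to 3 for aged against young at 24 h. With the compared groups fitted alone, 14 were called for young 24 h, 0 for aged 24 h and 3 for young primed against naive LPS. Without the term for the replicate sets, 1 was called lower on young day 3 and 2 lower in young primed cells. Total-count scaling and no count filter each gave 2 for aged 4 h. The cause of these changes was not tested.

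Total-count scaling shifted the median of all genes by −0.80 in young and −0.73 in aged LPS cells against control, and by −0.11 in young cells at 4 h of β-glucan. The share of all calls that were higher then fell from 46.6% to 19.4% and from 47.9% to 19.6% with LPS, from 61.7% to 35.3% and from 75.4% to 53.5% at 4 h, and from 67.5% to 37% and from 76.9% to 53.7% at 24 h, young and aged. Correlations of same-numbered libraries ran from −0.066 to 0.205, and no comparison had all of its pairs over 0.1, so numbers were not taken as pairs. As a hint from the data, the own number was the best match in 18 of 18 pairs within aged cells (0.020 to 0.11), 13 of 21 within young cells and 10 of 18 between ages. A replicate block gave 9 genes for young 4 h, 27 for young 24 h, 4 and 18 for aged, and 38 for each LPS comparison. Depth limits Oasl1, Ifi44 and Isg20, which had few counts without LPS.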
